A study of Mus musculus with 12 samples.

Results

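The comparison described here is the effect of a Tbx5 knockout (KO) averaged over hearts with and without an Nkx2-5 KO. It set the 6 arrays with Tbx5 KO in their title against the 6 arrays without it, with the Nkx2-5 label as a covariate, so it used all 12 arrays of the series. The measurements were every probe set with exactly 1 gene symbol, which were 21789 of 35557 probe sets and stood for 19938 genes. Each of the 12 Affymetrix arrays held RNA of hearts taken at embryonic stage E8.75 from the mouse, and each of the 4 groups had 3 biological replicates. The side without the label held wild type (WT) and Nkx2-5 KO hearts, and the side with it held Tbx5 KO hearts and hearts without both genes (double KO). Strain and sex are not given in the labels, nor is the part of each gene that was removed, nor how many hearts went into an array. All hearts were measured whole, so in every result below fewer cells of a type and less RNA per cell cannot be told apart.

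Tbx5 is a T-box transcription factor of the posterior part of the early heart tube, where the inflow tract, the atria and the left ventricle form. It works together with the homeodomain factor Nkx2-5 and the zinc finger factor Gata4 at many genes of heart muscle, and mouse embryos without it die with a small, poorly looped heart. In people, changes in TBX5 cause Holt-Oram syndrome, which joins defects of the heart septa with defects of the forelimb. At the stage sampled here the tube is looping, its outer wall has begun to form chambers, and the canal between them stays narrow.

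Every level below is the authors' deposited log2 value of a probe set. A difference is the level in arrays labelled Tbx5 KO (single and double) minus the level in the other arrays, and is followed by ± its standard error (SE) from the limma fit to 6 arrays on each side. A level given as mean ± SD has n = 3 arrays. Probe sets with a p under 0.05 after Benjamini-Hochberg adjustment across the 21789 count as called. Array medians lay between 8.05 and 8.25 and the number of arrays limits the precision. The SD of all values on an array was 2.13 to 2.19 in WT and Nkx2-5 KO, 2.13 to 2.16 in Tbx5 KO and 2.05 to 2.10 in double KO hearts. The mean of 7 heart muscle markers (Tnnt2, Actc1, Myl7, Myh6, Myh7, Actn2 and Ttn) was 13.19 to 13.45 on every array. Xist, the RNA of the inactive X chromosome, was high in WT and Tbx5 KO (11.46 to 12.32) and low in Nkx2-5 KO and double KO hearts (6.44 to 8.16). Sex therefore cannot be told apart from the Nkx2-5 label. Each side of the Tbx5 comparison held a group with high and a group with low Xist. The Xist difference between the sides was 0.36 (adjusted p 0.395 in limma), which does not show that they were equal in sex.

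The targeted gene does not check the label here. The Tbx5 probe set (10525030, chromosome 5) gave 10.15, 10.13 and 9.90 in WT and 10.53, 10.15 and 10.29 in Nkx2-5 KO hearts. It gave 10.73, 10.42 and 10.45 in Tbx5 KO and 10.31, 10.65 and 10.83 in double KO hearts. The arrays labelled Tbx5 KO thus did not have a lower signal, and the difference was 0.37 ± 0.10 (adjusted p 0.0438 in limma). That call was lost without any of 10 of the 12 arrays (adjusted p up to 0.0936), and with arrays centred on their medians (adjusted p 0.0837). The labels do not say whether the probes lie in the removed part of the gene, so every direction below rests on the titles. The Nkx2-5 probe set, at 8.72 to 9.36 without and 8.97 to 9.38 with the Tbx5 KO label, differed by 0.07 ± 0.07 (adjusted p 0.579 in limma). Each of these ranges pools arrays with and without the Nkx2-5 KO label. All 12 arrays thus lay between 8.72 and 9.38, and the Nkx2-5 label rests on the titles too.

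Among called probe sets, more were lower than higher in the hearts labelled Tbx5 KO. Over all probe sets the balance was the other way, with 11962 differences, rounded to 2 decimals, above 0 and 9332 below. Of 21789 probe sets, 2001 were called (9.18%), of which 607 were higher (2.79% of all) and 1394 lower (6.40% of all). They stood for 1889 genes, 587 higher and 1302 lower, and 0 genes had probe sets called in both directions. Without double KO replicate 2 the calls numbered 1207, and without Nkx2-5 KO replicate 1 or 2 they numbered 1304 and 1306. Large changes were few: 90 called probe sets differed by at least 1 log2 unit, 29 of them higher and 61 lower. Only 5 differed by at least 2 units, and all were lower: Vsnl1, Bmp10, Cacna2d2, Nppa and Pf4. Within both Nkx2-5 labels the 3 arrays labelled Tbx5 KO lay wholly to the same side of the 3 others in 1319 of the called probe sets (65.9%), or 6.05% of all probe sets, while 7.85% of all had that pattern whether called or not. All 6 arrays with the label lay to 1 side of all 6 others in 383 called probe sets (19.1%) and in 2.15% of all. The split of calls went with signal and scaling. With probe sets cut into 4 equal classes by mean level, the brightest class had 168 higher and 863 lower calls and the dimmest 103 higher and 19 lower. Higher calls were 30.3% of the calls as deposited and 14.0% (310 of 2212) with arrays centred on their medians, and what moves the split was not tested.

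**Figure D1:**
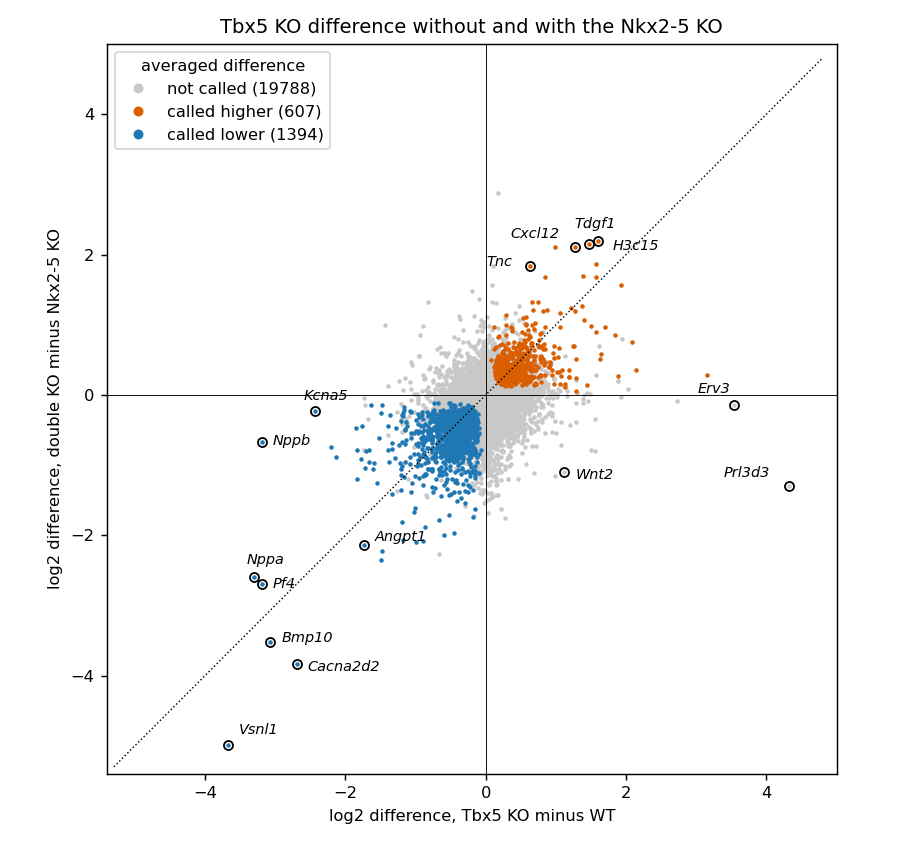
Each point is 1 of 21789 probe sets, with the log2 difference between Tbx5 KO and WT on the x axis and that between double KO and Nkx2-5 KO on the y axis; orange and blue mark the 607 higher and 1394 lower calls of the averaged difference, and the dotted line marks equal differences. Vsnl1, Bmp10, Cacna2d2 and Nppa lie far to the lower left, while Erv3 and Prl3d3 lie far to the right with no rise on the y axis.

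The chamber and trabecular list had the highest share of called genes among the lists, and it held Vsnl1, Bmp10 and Nppa. Since the lists were chosen with earlier results of these data known, this rank is a description and no test. Of its 23 measured genes, 10 were called lower and 1, Hand1, higher (47.8% called, against 9.18% of all probe sets), and the median difference was -0.299, against 0.0246 over all probe sets (-0.0130 with quantile normalization and -0.0305 with centred arrays). Vsnl1 (probe set 10399407, chromosome 12) encodes visinin-like 1, a calcium sensor protein. Its levels were 10.78, 10.60 and 11.32 in WT and 12.79, 12.61 and 12.68 in Nkx2-5 KO hearts, against 7.33, 7.50 and 6.84 in Tbx5 KO and 7.83, 7.67 and 7.62 in double KO hearts. Every array labelled Tbx5 KO was below every other array, and the difference of -4.33 ± 0.22 was a 20.1-fold lower signal (adjusted p 8.60e-07 in limma). Bmp10 (10539802, chromosome 6), a signalling protein of the trabecular wall that keeps its muscle cells dividing, lay between 10.16 and 11.09 (median 10.50) in the 6 arrays without the label. In the 6 arrays with it, Bmp10 lay between 6.92 and 7.46 (median 7.29). The difference was -3.29 ± 0.16, a 9.81-fold lower signal (adjusted p 7.87e-07 in limma), and it was of like size without and with the Nkx2-5 KO (-3.07 and -3.52).

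Nppa and Nppb encode natriuretic peptides made by chamber muscle and are neighbours on chromosome 4. Their promoter sequences are shown because Nppa was the single gene among the 15 largest falls whose 250 bases before the start held the T-box motif AGGTGTNA on either strand, of 11 such genes with a window. Nppb, its neighbour, also fell. Both sequences are RefSeq's, from GRCm38.p6, plus strand, and were picked for printing after the values were seen. Capitals mark the T-box motif, here read on the reverse strand, and AAGTG, the core of Nkx2-5 sites, searched on both strands.
Nppa, chr4:148000472-148000721: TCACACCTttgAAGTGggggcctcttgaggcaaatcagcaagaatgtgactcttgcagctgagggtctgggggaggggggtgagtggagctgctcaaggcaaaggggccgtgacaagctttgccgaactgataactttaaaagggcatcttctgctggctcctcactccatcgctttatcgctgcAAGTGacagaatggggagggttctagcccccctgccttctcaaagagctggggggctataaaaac
Nppb, chr4:147985650-147985899: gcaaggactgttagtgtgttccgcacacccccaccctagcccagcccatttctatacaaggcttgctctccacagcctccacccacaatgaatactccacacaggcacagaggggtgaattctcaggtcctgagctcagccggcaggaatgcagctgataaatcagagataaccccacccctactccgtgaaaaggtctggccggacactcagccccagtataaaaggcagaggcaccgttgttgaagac
The Nppa window held 1 T-box match, at bases 250 to 243 before the start, and 2 matches to AAGTG, while the Nppb window held 0 of either. Over all 32851 RefSeq windows of this length, 2.68% held the T-box motif, 40.7% held AAGTG and 1.18% held both. The motif was in 2.33% of the windows of genes called lower (24 of 1028) and in 2.21% of those called higher (9 of 408), against 2.86% of all measured genes. A match describes letters in a window and not a bound site.

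The Nppa signal fell with each label. It was 13.29, 13.52 and 13.29 in WT, 11.26, 10.08 and 10.82 in Nkx2-5 KO, 10.45, 10.09 and 9.63 in Tbx5 KO and 8.01, 8.37 and 8.02 in double KO hearts. The arrays labelled Tbx5 KO lay below the others within each Nkx2-5 label, but the Nkx2-5 KO and Tbx5 KO arrays overlapped. The averaged difference was -2.95 ± 0.21 (7.72-fold lower, adjusted p 1.36e-05 in limma), and it was -3.31 without and -2.59 with the Nkx2-5 KO. Nppb fell by 1.93 ± 0.40 on average (adjusted p 0.0116 in limma), with differences of -3.19 in hearts without the Nkx2-5 KO and -0.67 in hearts with it.

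Among other chamber genes, Cited1, a coactivator of early ventricular muscle, fell by 1.22 ± 0.20, and Stard10, a lipid transfer protein, fell by 1.03 ± 0.09. The ventricular light chain Myl2 fell by 0.42 ± 0.08, with all 3 arrays labelled Tbx5 KO lower within each Nkx2-5 label. Hopx, a homeodomain-only protein that acts with Nkx2-5 and limits muscle cell division, lay between 9.73 and 10.60 (median 10.23) without and between 8.77 and 9.36 (median 9.12) with the label. It fell by 1.10 ± 0.09 (adjusted p 7.53e-05 in limma). Popdc3, a membrane protein of the cAMP-binding Popeye family, was 9.39 to 9.77 (median 9.54) without and 8.34 to 8.81 (median 8.62) with the label, a difference of -0.94 ± 0.06. Gja5, the fast connexin of atrial and trabecular muscle, differed by -1.01 and did not pass the test (adjusted p 0.0643 in limma). It passed without double KO replicate 1 (0.0361), with group means (0.0304) and with centred arrays (0.0477). Gja1, the other main connexin, fell by 0.67 ± 0.19, a call lost without any of 9 arrays (adjusted p up to 0.0929 in limma). The chamber factors Hey1, Hey2, Irx3, Irx4 and Irx5 differed by -0.10 to 0.12 and none passed the test.

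**Figure D2:**
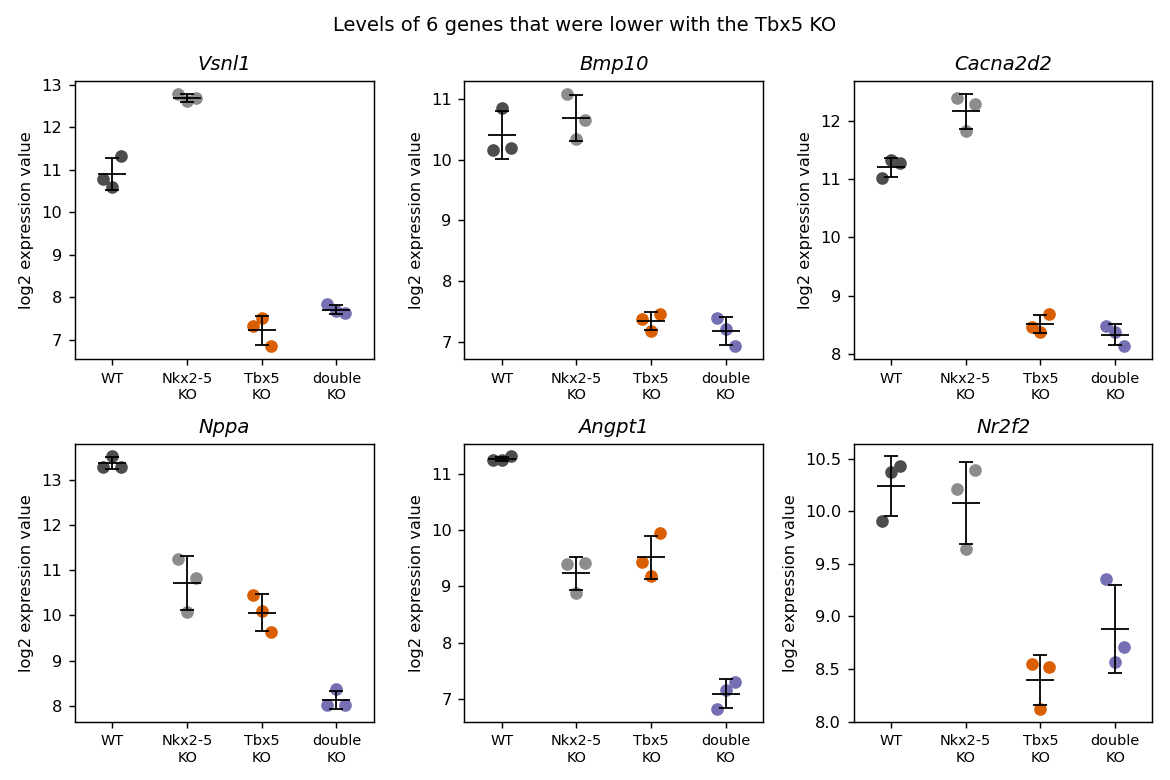
Each panel gives the log2 expression value of 1 gene on every array (points), with the mean and SD of the 3 arrays of each group (bar and whiskers); the y axes differ in range. For Vsnl1, Bmp10, Cacna2d2 and Nr2f2 all 6 arrays labelled Tbx5 KO lie below all 6 others, while Nppa and Angpt1 step down with each of the KO labels.

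Genes of the inflow tract and atrioventricular canal, where the pacemaker and the cushion-forming muscle arise, included several falls. Of 19 measured, 7 were called lower (6.40% of all probe sets were), 1, Bmp4, was called higher and 11 did not pass the test, with a median difference of -0.295. Cacna2d2 (10588592, chromosome 9), an auxiliary subunit that brings voltage-gated calcium channels to the membrane, was 11.02, 11.32 and 11.27 in WT and 12.39, 11.82 and 12.28 in Nkx2-5 KO hearts. It was 8.47, 8.38 and 8.69 in Tbx5 KO and 8.48, 8.38 and 8.13 in double KO hearts, so the sides did not overlap. The difference was -3.26 ± 0.19 (9.60-fold lower, adjusted p 2.72e-06 in limma). Like Vsnl1, Cacna2d2 was higher in Nkx2-5 KO than in WT arrays and nearly level between Tbx5 KO and double KO arrays. Nr2f2, the orphan nuclear receptor that sets atrial identity, fell by 1.52 ± 0.19 (adjusted p 0.000747 in limma). Hcn4, the channel of the pacemaker current, was 9.65, 9.74 and 9.95 in WT, 10.63, 10.48 and 10.94 in Nkx2-5 KO, 8.18, 8.60 and 8.90 in Tbx5 KO and 9.63, 9.55 and 9.96 in double KO hearts. It fell by 1.10 ± 0.13 (adjusted p 0.000623 in limma), although the double KO arrays overlapped the WT arrays. The T-box repressor of the canal and nodes, Tbx3, fell by 0.68 ± 0.12, and Tbx18, a factor of the sinus horns, fell by 0.69 ± 0.16. Isl1, Tbx2, Shox2 and Wnt2 differed by 0.19, 0.20, -0.29 and 0.01 and did not pass the test.

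Several cardiac transcription factors rose while their better known partners did not change detectably. Of 26 measured, 7 were called higher and 2, Nr2f2 and Hopx, lower (34.6% called, against 9.18% of all probe sets), and all 9 calls held without any 1 array. Myocd, the coactivator of SRF at muscle genes, was 10.48, 10.22 and 10.33 in WT, 9.96, 9.89 and 9.87 in Nkx2-5 KO, 10.96, 10.92 and 10.96 in Tbx5 KO and 10.72, 10.82 and 10.56 in double KO hearts. Its 6 arrays labelled Tbx5 KO were all above the other 6, with a rise of 0.70 ± 0.07 (adjusted p 0.000177 in limma), and it was also called within each Nkx2-5 label (0.60 and 0.80). Hand1, the basic helix-loop-helix factor of the outer curvature and left ventricle, rose by 0.77 ± 0.15 (adjusted p 0.00821 in limma), by 1.18 without and 0.35 with the Nkx2-5 KO. Its relative Hand2 rose by 0.43 ± 0.07 and Gata6 by 0.47 ± 0.07. Casz1, Mef2d and Mef2c rose by 0.48, 0.47 and 0.27, and the Mef2c call was lost with arrays centred on their medians (adjusted p 0.0575). For Casz1 and Mef2d a further probe set of the gene was not called. Gata4 differed by 0.07 (adjusted p 0.671) and Tbx20 by 0.11 (adjusted p 0.593), both in limma.

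In the second heart field and outflow list, 4 of 23 genes were called higher and 2 lower (26.1% called, against 9.18% of all probe sets). Bmp4, a BMP ligand of outflow muscle and splanchnic mesoderm, was 9.96 to 10.72 without and 11.00 to 11.57 with the label in all 6 arrays of each side, a rise of 0.82 ± 0.13 (adjusted p 0.00304 in limma). Plxna2, a semaphorin receptor, fell by 0.72 ± 0.09. The retinoic acid-making enzyme Aldh1a2 fell by 0.51 ± 0.15, a call lost without any of 10 arrays (adjusted p up to 0.106 in limma). Fgf8, Tbx1 and Fgf10 differed by 0.03, 0.01 and -0.44 and did not pass the test.

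**Figure D3:**
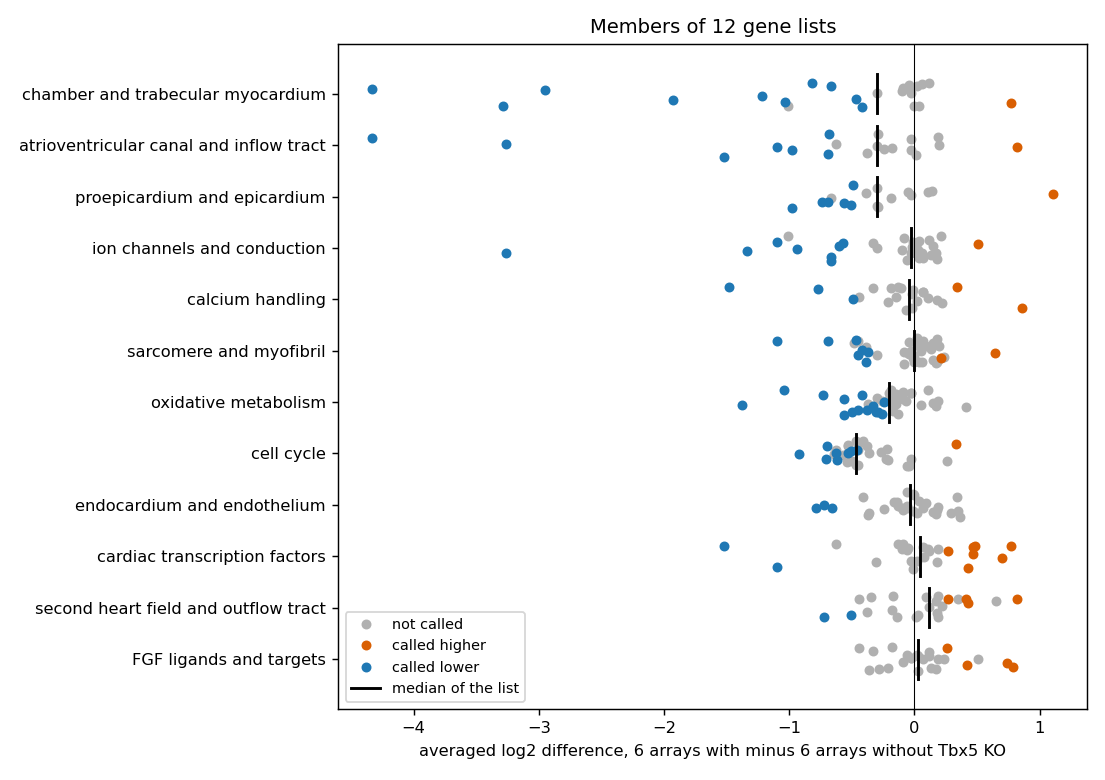
Each point is a measured gene of 1 of 12 lists, placed on the x axis by its averaged log2 difference and spread on the y axis only for visibility; orange and blue mark called genes and black bars the list medians. The chamber, inflow, proepicardium, oxidative and cell cycle lists have medians from -0.203 to -0.470, and Vsnl1, Bmp10, Cacna2d2 and Nppa lie furthest left.

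Some heart muscle contraction genes changed. Of 39 sarcomere and myofibril genes, 7 were called lower and 2 higher (23.1% called, against 9.18% of all probe sets), with a median of 0.00213. The cardiac troponin I gene Tnni3 was 13.15 to 13.40 without and 12.51 to 12.93 with the label, a fall of 0.47 ± 0.06 (adjusted p 0.000991 in limma), and Mylk3, the cardiac myosin light chain kinase, rose by 0.64 ± 0.10. Myoz2, a calcineurin-binding protein of the Z-disc, fell by 1.10 ± 0.28. The other higher call was Tnnt2, which rose by 0.21 ± 0.05. Of the 9 calls, those of Tnni3, Myl2 and Mylk3 held without any 1 array. Those of Myoz2, Pdlim3, Lmod2, Csrp3, Tnnt1 and Tnnt2 were lost without at least 1 array (adjusted p up to 0.101 in limma). Myh6, the atrial heavy chain, differed by -0.48 (adjusted p 0.0508 in limma), by -0.11 without and -0.86 with the Nkx2-5 KO. It passed without WT replicate 2 (0.0334) or Tbx5 KO replicate 3 (0.0471) and under several other settings, among them centred arrays (0.0279). Actc1, Tnnc1, Myl7, Myh7 and Ttn differed by -0.04 to 0.20 and did not pass the test.

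The calcium store of the muscle cell and its channels moved in both directions. Of 22 calcium handling genes, 3 were lower and 2 higher (22.7% called, against 9.18% of all probe sets), and all 5 calls held without any 1 array. The calcium pump Atp2a2 was 13.54 to 13.76 without and 12.95 to 13.32 with the label and fell by 0.49 ± 0.06 (adjusted p 0.000696 in limma). Its inhibitor phospholamban (Pln) fell by 1.48 ± 0.28, by 2.21 without and 0.74 with the Nkx2-5 KO. Trdn, the triadin that anchors the release channel, fell by 0.77 ± 0.12 at its brightest probe set, but only 2 of its 18 other probe sets were called in that direction. The L-type channel pore gene Cacna1c rose: it was 9.61 to 10.17 (median 9.82) without and 10.28 to 11.01 (median 10.79) with the label, a difference of 0.86 ± 0.10 (adjusted p 0.000581 in limma). The T-type pore gene Cacna1h also rose, by 0.51 ± 0.10. The release channel Ryr2 and the exchanger Slc8a1 differed by -0.11 and 0.07 and did not pass the test. In the ion channel and conduction list 8 of 30 were lower and 1, Cacna1h, higher. Beside Cacna2d2, Hcn4 and Popdc3, the list's falls included the potassium channel Kcna5 (-1.34 ± 0.34) and the Popeye protein Bves (-0.60 ± 0.13). The Kcna5 call was lost without any of 5 of the WT and Tbx5 KO arrays (adjusted p up to 0.0614 in limma).

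The 15 largest rises that did not overlap within either Nkx2-5 label ran from 0.94 to 1.90. Tdgf1, the Nodal co-receptor Cripto, was 9.95 to 11.41 (median 10.35) without and 11.87 to 12.86 (median 12.48) with the label. The sides did not overlap, and the rise of 1.81 ± 0.24 (adjusted p 0.00121 in limma) was 3.50-fold. Cxcl12, a chemokine that guides endothelial and progenitor cells, rose by 1.69 ± 0.23, from a median of 9.02 to one of 11.07. Esm1, a proteoglycan secreted by endothelial tip cells, rose by 1.62 ± 0.22, and the matrix protein tenascin C (Tnc) by 1.23 ± 0.23. Pde3a, a phosphodiesterase that breaks down cAMP in heart muscle, was 9.12 to 9.65 without and 10.37 to 11.20 with the label, a rise of 1.23 ± 0.13 (adjusted p 0.000290 in limma). The sodium channel Scn7a rose by 1.23 ± 0.11 and the scaffold protein Tanc2 by 1.31 ± 0.15. The histone genes H3c15 and H3c4 rose by 1.90 ± 0.35 and 0.94 ± 0.16, although near-identical histone copies can share probes. Ndufa4l2, a mitochondrial protein induced by low oxygen, rose by 1.42 ± 0.34 and A2m, a protease inhibitor, by 1.25 ± 0.30. Both calls were lost without Tbx5 KO replicate 1 (adjusted p 0.0542 and 0.0544 in limma), and that of A2m also without WT replicate 3 (0.0522). The remaining 4 of the 15 were Lrrc2, Gipr, Susd4 and Rhox9, with rises of 1.26, 1.01, 1.01 and 1.07.

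**Figure D4:**
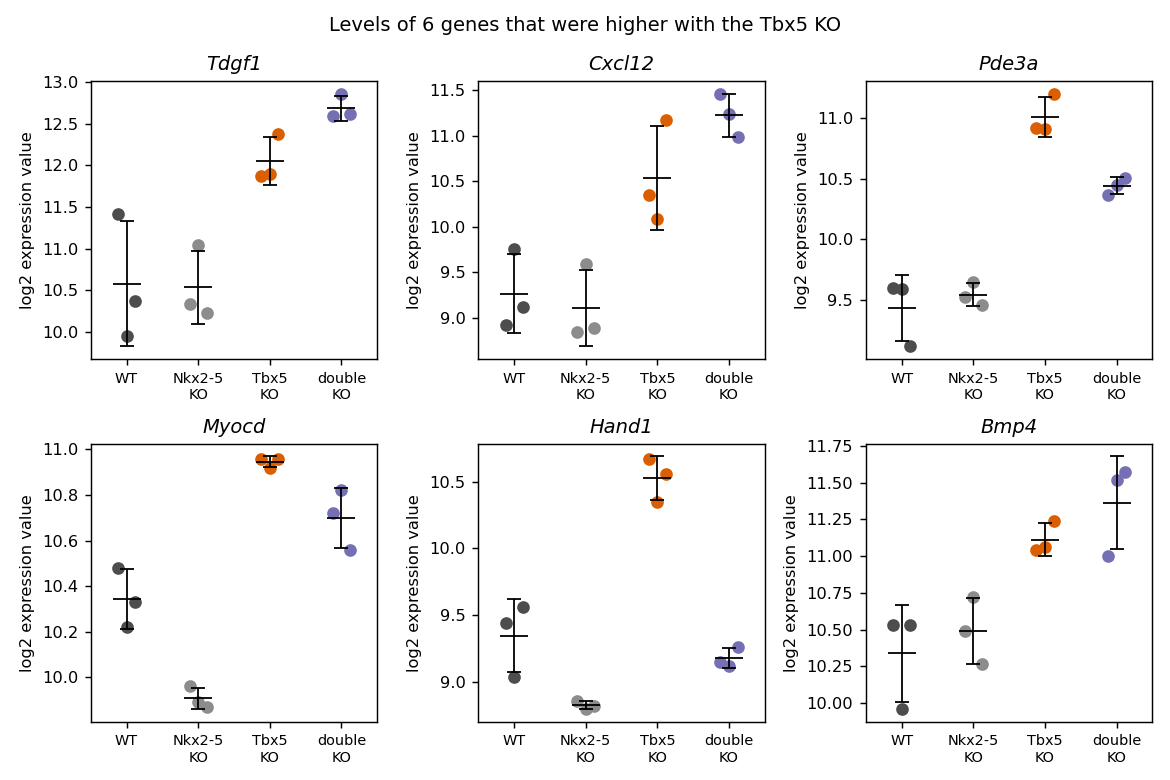
Each panel gives the log2 expression value of 1 gene on every array (points), with the mean and SD of the 3 arrays of each group; the y axes differ in range. For Tdgf1, Cxcl12, Pde3a, Myocd and Bmp4 the 6 arrays labelled Tbx5 KO lie above the 6 others, while for Hand1 the double KO arrays overlap the WT arrays.

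Among the other large falls, Angpt1, a ligand of the endothelial receptor Tek that muscle cells release, was 11.24, 11.24 and 11.31 in WT, 9.39, 8.89 and 9.42 in Nkx2-5 KO, 9.43, 9.19 and 9.94 in Tbx5 KO and 6.82, 7.16 and 7.31 in double KO hearts. It fell by 1.94 ± 0.15 (adjusted p 2.19e-05 in limma), by 1.74 without and 2.14 with the Nkx2-5 KO. The signalling regulator Rgs6 fell by 1.92 ± 0.16 and the peptide hormone gene Cck by 1.85 ± 0.16, and neither overlapped between the sides. Cyria, a regulator of actin, fell by 1.62 ± 0.18 and the adhesion molecule Vcam1 by 1.51 ± 0.19. Spon1, a secreted matrix protein, was 9.40 to 10.06 (median 9.71) without and 7.97 to 8.71 (median 8.30) with the label, a fall of 1.40 ± 0.10 (adjusted p 2.13e-05 in limma). Ppp1r17, a phosphatase inhibitor, fell by 1.54 ± 0.18 and Atp8a1, a lipid flippase, by 1.49 ± 0.20.

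Among signalling genes, BMP ligands moved in both directions. In the BMP and TGF-beta list 5 of 38 genes were lower and 1 higher (15.8% called, against 9.18% of all probe sets). Besides Bmp10 and Bmp4, Bmp2, the cushion-inducing ligand of the canal muscle, fell by 0.98 ± 0.21 (adjusted p 0.0138 in limma) and Bmp7 by 0.35 ± 0.08. The target genes Id1, Id3, Smad6 and Smad7 differed by -0.11, -0.42, 0.00 and -0.20 and did not pass the test. In the FGF list 4 of 25 were called higher and 0 lower. Of the 25 differences 15 were above 0 and 10 below, with a median of 0.0345. Etv5 and Il17rd, which FGF signals induce, rose by 0.79 ± 0.17 and 0.74 ± 0.15, but a further Etv5 probe set was not called. The target genes Dusp6, Etv4, Spry1, Spry2 and Spry4 did not pass the test. Medians of Dusp6, Etv4 and Spry4 were lower with the label, and those of Spry1 and Spry2 were higher. Fgfr2 and Fgf15 rose by 0.42 and 0.26, calls lost without at least 1 array (adjusted p up to 0.0923 in limma). Of 33 Wnt genes 2 were called (6.06%, under the 9.18% of all probe sets), Wnt5a and Fzd4. Both were higher, and neither call held without every array (adjusted p up to 0.0796 in limma). The Notch, neuregulin and ephrin list had 2 calls among 23 genes (8.70%, near the 9.18% of all probe sets). Erbb2, the neuregulin co-receptor that trabeculation needs, fell by 0.58 ± 0.11, and Jag2 rose by 0.24. The Jag2 call was lost with centred arrays (adjusted p 0.0581) and with quantile normalization (0.0532), both in limma. In the retinoic acid list, Aldh1a1 fell by 0.98 ± 0.17 beside Aldh1a2, and Rxra rose by 0.31, a call lost with centred arrays (adjusted p 0.0705). In the hedgehog list 0 of 15 genes were called by limma (4 had an unadjusted p under 0.05), and the 15 differences ran from -0.38 for Osr1 to 0.35 for Foxf1. In the list of extracellular matrix and cushion genes 3 of 39 were called, all lower (7.69%, under the 9.18% of all probe sets). These were Spon1, described above, Hapln1, which links hyaluronan in the cardiac jelly and fell by 0.73 ± 0.14, and Twist1, a mesenchymal factor.

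Some genes of fatty acid use, the citric acid cycle and the respiratory chain fell. In the oxidative metabolism list 14 of 37 genes were called lower (6.40% of all probe sets were), 0 higher and 23 not at all, with a median of -0.203. In all called ones but Cpt2 the arrays did not overlap within either Nkx2-5 label. That pattern held in 65.9% of all called probe sets and in 7.85% of all probe sets. The fatty acid carrier Cd36 fell by 1.38 ± 0.20, the lipase Lpl by 1.04 ± 0.14 and the citric acid cycle enzyme Idh3a by 0.73 ± 0.08 (adjusted p 0.000255 in limma). Idh3a was 11.66, 11.38 and 11.30 in WT, 10.76, 10.61 and 10.60 in Nkx2-5 KO, 10.85, 10.56 and 10.79 in Tbx5 KO and 9.87, 9.92 and 9.91 in double KO hearts. The fall was of like size without (-0.71) and with (-0.76) the Nkx2-5 KO. Of the 14 calls, 8 held without any 1 array, among them Fh1, Hadhb, Ndufs1 and Ndufb8 with falls of 0.56, 0.56, 0.45 and 0.42. The others were Cpt2, Acadvl, Ogdh, Mdh2, Ndufa9 and Uqcrc2 (adjusted p up to 0.0734 in limma). In the hypoxia and glycolysis list 1 of 25 genes was called, Pfkp (0.35, lost with centred arrays at adjusted p 0.0547), while 23 of the 25 differences were above 0 and the median was 0.162. In the unfolded protein and heat shock list 3 of 28 were called (10.7%, near the 9.18% of all probe sets), all lower, the chaperone Hsph1 by 0.59 ± 0.08, the stress factor Xbp1 by 0.42 ± 0.09 and Hspa5 by 0.29, the last lost without at least 1 array (adjusted p up to 0.0511 in limma). In the p53 and apoptosis list 1 of 18 was called (5.56%), Casp8, an initiator of cell death, which fell by 0.67 ± 0.15.

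The cell cycle list had the lowest median of all lists, -0.470, with 8 of 35 genes lower and 1 higher (25.7% called, against 9.18% of all probe sets). Of the 35 differences 33 were below 0. In limma 27 of the 35 had an unadjusted p under 0.05, as did 25.5% of all probe sets. The median was -0.765 in hearts with the Nkx2-5 KO and -0.129 in hearts without it, and the difference between these medians was not tested. Ccnd1, the cyclin D1 that lets cells enter the cycle, differed by -0.66 without and -0.76 with the Nkx2-5 KO and fell by 0.71 ± 0.10 on average (adjusted p 0.00150 in limma). Rrm2, the ribonucleotide reductase subunit that supplies DNA synthesis, was 11.95, 11.72 and 11.85 in WT, 11.15, 11.49 and 11.08 in Nkx2-5 KO, 11.53, 11.48 and 11.63 in Tbx5 KO and 9.48, 9.15 and 10.46 in double KO hearts. Its average fall of 0.92 ± 0.25 lost its call without any of 7 arrays (adjusted p up to 0.0809 in limma). The calls of Ccnd1, Ccne2 and Mcm2 held without any 1 array; those of Rrm1, Cdk6, Cdc25a, Pcna and the higher Ccnd2 did not. Mki67, Cdk1 and Top2a differed by -0.63, -0.64 and -0.45 and did not pass the test.

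Cell types other than heart muscle were followed through their own genes. Of 17 proepicardium and epicardium genes 6 were lower and 1 higher (41.2% called, against 9.18% of all probe sets). Wt1 and Tbx18, which mark these cells, fell by 0.56 ± 0.13 and 0.69 ± 0.16, while Upk1b, a surface protein of the mesothelium, rose by 1.11 ± 0.26. Gpm6a, Lrrn4, Aldh1a1 and Aldh1a2 also fell, but only the Aldh1a1 call among them held without any 1 array. The 4 proepicardial markers, of which Wt1 and Tbx18 were called, averaged 8.26 to 9.32 without and 7.99 to 8.30 with the label. Of 30 endocardial and endothelial genes 3 were called, a share near the 9.18% of all probe sets, and all 3 were lower: the angiopoietin receptor Tek by 0.79 ± 0.16, the natriuretic peptide clearance receptor Npr3 by 0.72 ± 0.14 and the cushion endocardial factor Nfatc1 by 0.66 ± 0.13. The 7 endothelial markers, of which Tek and Nfatc1 were called, averaged 9.69 to 10.48 without and 9.72 to 10.01 with the label. Pecam1, Cdh5 and Kdr differed by -0.24, -0.06 and -0.09 and did not pass the test. Of 18 blood cell genes 1 was called (5.56%, under the 9.18% of all probe sets). This was Pf4, a platelet and macrophage chemokine, which fell by 2.94 ± 0.62 (adjusted p 0.0132 in limma). Pf4 was at 6.51 on Nkx2-5 KO replicate 2, as low as on the arrays labelled Tbx5 KO (6.54 to 7.45), and at 9.40 to 11.44 on the other arrays without the label. The 5 red cell markers averaged 10.71 to 12.14 without and 9.68 to 11.19 with the label, and none was called, although 4 of the 5 had an unadjusted p under 0.05 in limma (median difference -0.852). WT replicate 2 was the lowest of the WT arrays for all 5. Without it 4 of the 5 were called lower: Hbb-bh1 (adjusted p 0.0123), Alas2 (0.0150), Hba-x (0.0319) and Klf1 (0.0321), in limma. The part of blood, proepicardial or endothelial cells in the falls was not tested.

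In whole hearts, neighbouring tissues can be cut along. Over all probe sets 9.18% were called. Of 31 endoderm genes 1 was called (3.23%), Apoa1 (0.36, lost without any of 9 arrays, adjusted p up to 0.0907 in limma). Of 22 pharyngeal and neural crest genes 2 were called (9.09%), Twist1 and Prrx2. Both were lower, and neither call held without every array. Of 41 trophoblast and decidua genes 6 were higher and 1, Cited1, also a chamber gene, was lower (17.1% called). The 6 were Prl8a2, Rhox9, Htra1, Prl4a1, Cts7 and Hand1, the last also a heart factor. The calls of Prl8a2, Prl4a1 and Cts7 were lost without any of 6, 9 and 11 arrays (adjusted p up to 0.089 in limma). Of the 8 measured trophoblast markers, 5 lay below percentile 30 of the values on every array. The mean of these 8 was 6.87 to 7.09 on Tbx5 KO arrays and 6.22 to 6.51 on all others, and Prl3d3 carried most of this gap: without it the mean of the other 7 was 6.46 to 6.59 on Tbx5 KO arrays and 6.29 to 6.53 on all others, which overlap. The part of trophoblast RNA in the averaged rises was not tested. Among 10 widely used reference genes limma called 0 (3 had an unadjusted p under 0.05), with differences from -0.46 (Gusb) to 0.13 (Ywhaz).

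How far the effect depended on the Nkx2-5 label was tested directly. Between Tbx5 KO and WT arrays alone 312 probe sets were called (1.43%), and between double KO and Nkx2-5 KO arrays alone 557 (2.56%); these comparisons share no array. Leaving out any 1 of their 6 arrays gave 79 to 203 calls in the first and 68 to 834 in the second. They had 71 calls in common, 22.8% of the first and 12.7% of the second. Of these, 52 were lower in both, 16 higher in both, and 3 opposite: Wnt2, Bmp5 and Mir20a (the last pair named after their values were seen). Bmp5, a BMP ligand of the posterior heart, was 11.89 to 12.01 in WT and Nkx2-5 KO, 12.41 to 12.59 in Tbx5 KO and 11.40 to 11.54 in double KO hearts, so it rose in one and fell in the other, and its average of 0.02 hid both. Of the calls of the first comparison 82.4% had the same sign in the second, against 65.1% of all probe sets. Over the 21789 probe sets the 2 differences had a Pearson r of 0.438, a description only, since probe sets share arrays and are no replicates. Of the 2001 averaged calls, 1460 (73.0%) were called in neither comparison alone; the average rests on 12 arrays and each of these comparisons on 6. The largest of these were the rises of Ndufa4l2, Upk1b, Etv5, Aldoc, Gdap10 and Gpr171 (0.74 to 1.42) and the falls of Ptn, Itga4, Myoz2, Apela, Mgst3 and Bmp2 (-1.51 to -0.98). Of these 12, the calls of Ptn, Myoz2, Mgst3 and Ndufa4l2 were lost without at least 1 array.

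The interaction test asked whether the difference with the Nkx2-5 KO was unlike that without it. It called 113 probe sets (0.519%), 18 with a more positive and 95 with a more negative difference in hearts with the Nkx2-5 KO, and in 82 of them the 2 differences had opposite signs. Leaving out 1 array gave 32 (without Nkx2-5 KO replicate 1) to 271 calls (without double KO replicate 3). Of the 2001 averaged calls 26 were also called here. Nppb was 12.79, 13.13 and 12.49 in WT and 8.99 to 10.14 on all 9 other arrays, and Kcna5 was 9.82, 9.94 and 10.08 in WT and 7.16 to 8.62 on the others. For both, the single KO arrays lay near the double KO arrays. Prl3d3 and Erv3, a placental hormone gene and an endogenous retroviral sequence, were high only in Tbx5 KO hearts. Prl3d3 was 9.40 to 10.56 there and 4.98 to 7.40 on the others, and Erv3 10.43 to 11.27 there and 7.16 to 7.65 on the others. Wnt5a, a ligand of second heart field cells, was 10.19 to 10.49 in Tbx5 KO hearts and 8.83 to 9.36 on the others, so its averaged rise of 0.79 stood for 1.44 without and 0.14 with the Nkx2-5 KO (interaction adjusted p 0.0103 in limma). Wnt2, of the inflow mesoderm, rose by 1.12 without and fell by 1.10 with the Nkx2-5 KO (interaction adjusted p 0.00721 in limma). In contrast Bmp10, Popdc3, Stard10, Spon1, Angpt1 and Scn7a had interaction estimates from -0.45 to 0.29 with adjusted p from 0.739 to 0.982 in limma, which does not show that their differences were equal.

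**Figure D5:**
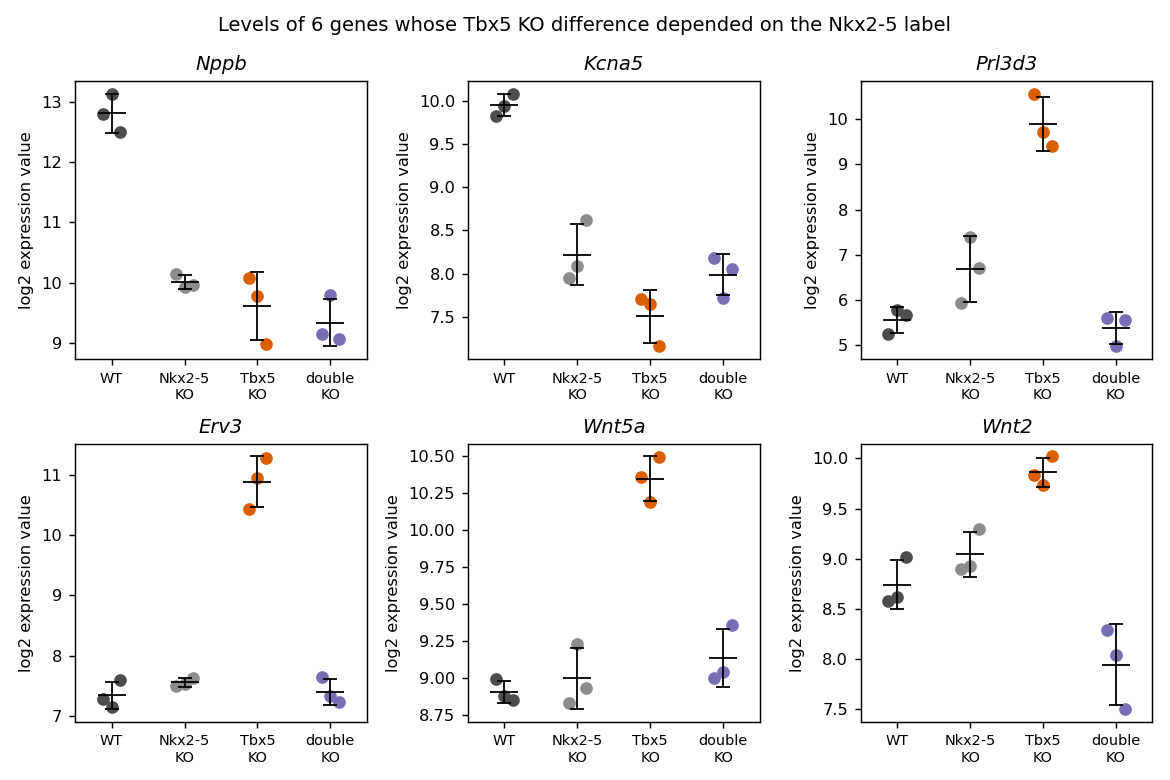
Each panel gives the log2 expression value of 1 gene on every array (points), with the mean and SD of the 3 arrays of each group; the y axes differ in range. Nppb and Kcna5 are high only in WT, Prl3d3, Erv3 and Wnt5a are high only in Tbx5 KO hearts, and Wnt2 moves in opposite directions with the Tbx5 KO label.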

How the data were processed

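RNA of hearts was extracted with PicoPure, amplified with NuGEN Ovation and labelled with NuGEN Encore Biotin, per the labels' protocols. The deposited table by the authors holds log2 values per probe set, already summarised and normalized between arrays; the software and background correction are not given in the sources used here. Each column was matched to a sample by the column name, and the group was read from the sample's title.

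Gene symbols came from the platform annotation: 21789 of 35557 probe sets had 1 symbol, 1621 several and 12147 none, and 21698 matched RefSeq by Entrez number. The values were fitted with limma 3.58.1 (lmFit and eBayes, R 4.3.3), with Tbx5 and Nkx2-5 labels as terms, over all 12 arrays with 9 residual degrees of freedom. Comparisons within 1 Nkx2-5 label used 6 arrays each, and the interaction used all 12. Benjamini-Hochberg adjustment ran over all 21789 probe sets. A gene in a list stands for its probe set with the highest mean. The labels call replicates biological without saying how many embryos each held. Tables used Python 3.11.15, pandas 2.3.3 and numpy 2.4.6. The fit was tested on simulated data.

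Genes were named by rule: the targeted genes, 12 known heart genes, the 15 largest non-overlapping rises and falls, up to 5 called genes with the largest change per list, the 8 largest called interactions, and the 6 largest changes in each direction called only in the average. Predicted genes, microRNAs, small nucleolar RNAs and sensory receptors were left out of the ranked rules. Other genes are named where a list or count calls for them, after their values were seen. The members and lists were chosen with earlier results of these data known. Promoters are the 250 bases before RefSeq starts (GRCm38.p6). Alternatives were group means, all table rows, array weights, median centring, quantile normalization, a filter on dim probe sets, an intensity trend, 1 probe set per gene, no covariate, a replicate block and leaving out each array. Same-numbered arrays did not deviate together (18 pairs, correlations -0.26 to 0.21, 3 above 0.1), so numbers were not taken to pair samples.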

Additional observations from a re-analysis of the deposited data

Results flagged for a closer look

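For 14 named genes the difference between arrays with and without the Tbx5 KO label itself differed by the Nkx2-5 label (interaction adjusted p under 0.05 in limma, n = 3 arrays per group). The values below are the log2 difference with the Nkx2-5 KO minus that without it. For Nppb this was 2.52 and for Kcna5 2.21, where only WT arrays were high. For Prl3d3 it was -5.62, for Erv3 -3.69, for Prl8a2 -2.87, for Prl2c5 -2.82 and for Rhox9 -1.60, genes highest in the single Tbx5 KO arrays. For S100a6, a calcium-binding protein, it was -2.35, for the ligands Wnt2 -2.22 and Wnt5a -1.31, and for the protease Htra1 -1.05. For Cacna2d2 it was -1.14, for Atp8a1 -1.20 and for Ppp1r17 -1.09, each of which fell more with the Nkx2-5 KO.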

How the results depend on the processing

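Among the 115 named genes no called difference changed direction under the alternatives run. The median difference over all probe sets, 0.0246, was -0.0130 with quantile normalization and -0.0305 with centred arrays. Without the Nkx2-5 covariate, which leaves the differences as they are because the design is balanced, the averaged calls numbered 239 (89 higher, 150 lower) in place of 2001. With the other settings they numbered 1380 to 2339, and the higher calls fell below 607 to 386 over all table rows and 310 with centred arrays. A replicate block, although the numbers do not pair the samples, gave 1480 averaged calls (385 higher), 117 without and 173 with the Nkx2-5 KO, and 50 for the interaction. For the comparison without the Nkx2-5 KO (312 calls) all table rows gave 48, array weights 588 and an intensity trend 509. For that with it (557 calls) all 12 arrays in the fit gave 1185, all table rows 62 and array weights 1590. For the interaction (113 calls) all table rows gave 33, array weights 340 and centred arrays 74.

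Leaving out 1 array gave 1207 to 1942 averaged calls (326 to 603 higher, 881 to 1387 lower), the fewest without double KO replicate 2 (1207), Nkx2-5 KO replicate 1 (1304) and Nkx2-5 KO replicate 2 (1306). The same gave 79 to 203 calls without and 68 to 834 with the Nkx2-5 KO and 32 to 271 for the interaction, a move of over 1.5 times for each array of the first, for each of the second but double KO replicate 3 (834), and for each of the third but WT replicate 2 (121). Of the 2001 averaged calls 1013 (50.6%) were kept without any 1 array. The causes of these shifts were not tested. Of 104 called named genes 38 kept their call under every alternative.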

Other observations

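In the imprinted Dlk1-Dio3 region on chromosome 12, 14 of 40 measured microRNA genes and the long RNA Meg3, which are read from the maternal copy, were higher in hearts labelled Tbx5 KO. The region was chosen after its values were seen. Of 103 RefSeq genes from Dlk1 to Dio3, 48 were measured, 15 were called higher and 0 lower (31.2%, against 2.79% of all probe sets called higher). The median difference was 0.445 (0.37 without and 0.495 with the Nkx2-5 KO), against 0.0246 over all probe sets and 0.0644 in the dimmest of 4 equal classes of probe sets. Of the 48, 46 were above 0, and Mir434 and Mir382 were below. Of 258 microRNA probe sets elsewhere, 15 were higher and 4 lower, with a median of 0.1.

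Meg3, a long noncoding RNA and the brightest example, was 11.78, 11.78 and 11.28 in WT, 11.68, 11.88 and 11.71 in Nkx2-5 KO, 12.36, 12.82 and 12.23 in Tbx5 KO and 12.95, 12.70 and 12.51 in double KO hearts. The 6 arrays with the label lay above the 6 others, with a rise of 0.91 ± 0.12 (adjusted p 0.00145 in limma) that held without any 1 array. Mir376b was 6.63 to 7.48 without and 6.94 to 9.45 with the label, a rise of 1.54 ± 0.26 (adjusted p 0.00423 in limma). Mir376a rose by 1.71 ± 0.45 and Mir369 by 1.54 ± 0.44, calls lost without any of 8 and 9 arrays. The calls of Mir370, Mir412 and Mir665 were lost without any of 6, 8 and 10 arrays (adjusted p up to 0.103 in limma). The paternally read protein genes Dlk1, Rtl1 and Dio3 differed by 0.43, 0.20 and 0.06 and did not pass the test, nor did the long RNA Rian (0.57, adjusted p 0.0561 in limma). The probe sets measure RNA of the gene and do not resolve the mature microRNA. Mature sequences of the 3 microRNA genes with the largest rises are RefSeq's (GRCm38.p6, plus strand), with the seed, bases 2 to 8, in capitals; all 27 mature microRNAs of the 14 called microRNA genes have different seeds.
mmu-miR-376b-3p, chr12:109723508-109723528: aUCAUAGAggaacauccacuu
mmu-miR-376a-3p, chr12:109723824-109723844: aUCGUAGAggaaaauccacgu
mmu-miR-369-3p, chr12:109743466-109743486: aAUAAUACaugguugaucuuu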
